A study of Vitis vinifera with 18 samples.

Results

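A group of 55 transcript clusters was read at a higher level in ripe berries of the red grapevine variety Aglianico than in those of Cabernet Sauvignon at each of 3 sites, while changing little from site to site in either variety. The 55 clusters were selected on their measured levels, from 97442 clusters in the deposited table. A cluster had to reach 20 counts in each of 17 libraries, which 13971 clusters did. Counts were divided by size factors and put on a log2 scale (scaled counts). The rule asked for a difference under 0.6 between the highest and lowest site mean within each variety, and a lowest Aglianico site mean at least 0.6 above the highest Cabernet Sauvignon site mean. That last difference is called the gap. All variety and site differences of the members over those 17 libraries were used to choose them, so they are given as descriptions and not as tests.

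Grapevine varieties are propagated by cuttings, so the vines of a variety carry nearly the same genome wherever they grow. Expression that follows the variety is told from plasticity, the change of expression with the growing environment, by growing the same varieties at several sites. In the ripe berry, pigment, aroma and stress pathways are known to differ between varieties. The files pair no gene name with a cluster identifier, and no transcript sequences were at hand. The members could therefore not be matched to the grapevine RefSeq gene table, so no pathway can be read from them and no sequence can be shown. The labelled tissue could not be checked against marker genes for the same reason.

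The samples were fully ripe, field-grown berries of Aglianico and Cabernet Sauvignon (Vitis vinifera) from Campania, Molise and Sicily in southern Italy. The 18 libraries come from 6 groups of variety and site with 3 biological replicates each. A replicate was a pool of 10 berries ground without seeds, from bush-trained and spur-pruned vines, so skin and flesh were measured together. The labels do not say whether replicates came from separate vines, and the spread between them may be in part technical. The rule used 8 Aglianico and 9 Cabernet Sauvignon libraries, with 2 libraries for Aglianico Campania.

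Total expected counts ran from 22637307 to 31859647 per library. The library labelled Aglianico Campania replicate 3, which the rule sets aside, did not follow its label in the members and is described below. The number of clusters that reached 10 counts was 45079 in Cabernet Sauvignon Sicily replicate 2 and 29212 in the Cabernet Sauvignon Sicily library whose column has no replicate number. It was 19155 to 25443 in the other 16 libraries. Without these 2 Cabernet Sauvignon Sicily libraries, the rule found 58 clusters, and 46 of the 55 members were among them. Levels are counts per cluster and not per length, since no lengths were given, so they were not compared between clusters.

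The members were a small part of the clusters that followed the variety. A site range under 0.6 was met by 7768 clusters in Aglianico, by 7640 in Cabernet Sauvignon and by 5241 in both. Among the 5241, the lowest Aglianico mean lay above the highest Cabernet Sauvignon mean in 772 clusters, and the reverse held in 764. The 0.6 gap left 55 of the 772 (1.05% of the site-stable clusters), and the mirrored rule found 42 clusters higher in Cabernet Sauvignon. Without the limit on site ranges, 171 clusters had a gap of at least 0.6 towards Aglianico, and 116 of these changed by 0.6 or more between sites. Of the 116, 37 did so in Aglianico only, 28 in Cabernet Sauvignon only and 51 in both.

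The gaps were modest. Their median was 0.77 on the log2 scale, a 1.7-fold difference between the closest site means of the varieties, with quartiles of 0.67 and 0.93. A gap of at least 1 was reached by 12 members, of at least 1.5 by 5 and of at least 2 by 2, and the widest was 2.34 (5.07-fold). In the 42 mirrored clusters the median was 0.91 and the widest 2.43. At the edge of the rule, the 2 members just inside had gaps of 0.602 and 0.610, and the 2 site-stable clusters just outside had 0.596 and 0.583. The highest site range among members was 0.571 in Aglianico and 0.587 in Cabernet Sauvignon. The nearest clusters that met every other condition had 0.613 and 0.648.

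**Figure D1:**
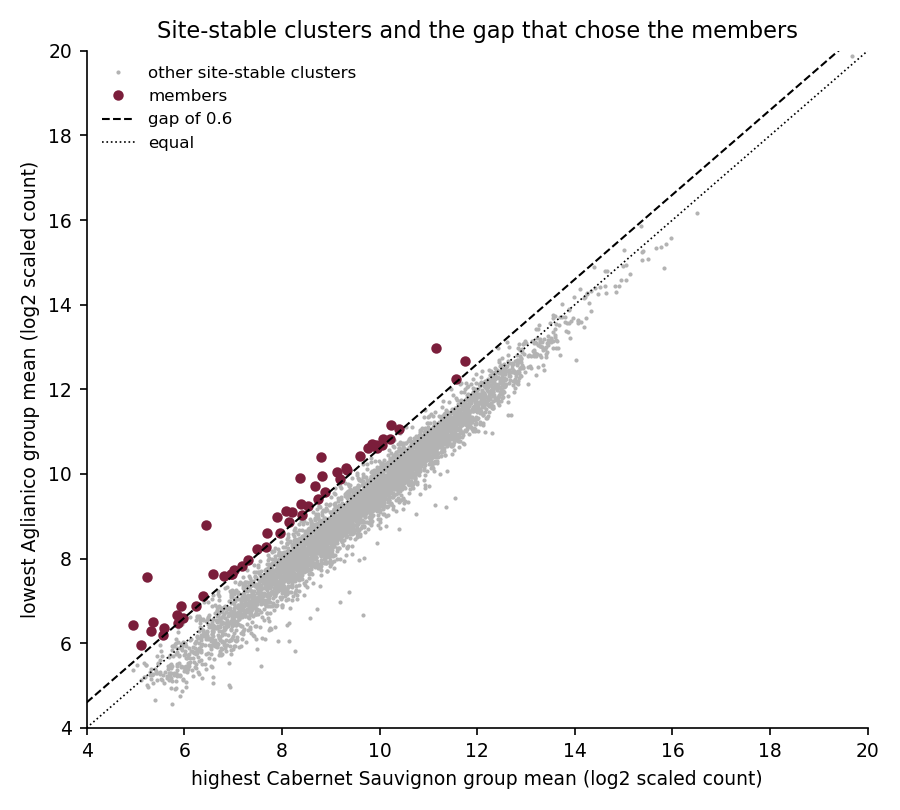
Lowest Aglianico against highest Cabernet Sauvignon site mean (log2 scaled counts) for the 5241 site-stable clusters, members in dark red. The dashed line is the gap of 0.6, and most members lie close to it, with 2 members more than 2 log2 units above equality.

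Averaged over the sites, Aglianico exceeded Cabernet Sauvignon by 0.79 to 2.65 log2 units in the members, with a median of 1.13, which is 2.19-fold. The median difference was 1.08 at Campania, 1.08 at Molise and 1.17 at Sicily. Over all 13971 clusters the medians were 0.01, 0.00 and 0.01. The size factors centre each library on these same clusters, so such small medians follow from the scaling. The lowest single-site difference was 0.60 at Campania, 0.65 at Molise and 0.63 at Sicily, since the rule allows none below its gap.

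Cluster-27903.29453 had the widest gap. Its scaled counts in Aglianico were 431 and 505 at Campania, 425, 496 and 414 at Molise, and 508, 681 and 644 at Sicily. In Cabernet Sauvignon they were 111, 83.2 and 63.4 at Campania, 83.5, 75.6 and 106 at Molise, and 118, 59.8 and 47.7 at Sicily. Every Aglianico library lay above every Cabernet Sauvignon library, with 414 as the lowest of the first and 118 as the highest of the second. Its means were 513 ± 100 (SD, n = 8) in Aglianico and 83 ± 24.2 (SD, n = 9) in Cabernet Sauvignon. The average log2 difference was 2.65, or 6.28-fold, and it reached 3.12 at Sicily, where the Aglianico mean was 611 ± 91.1 (SD, n = 3). That was the largest Sicily difference of any member.

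Cluster-27903.31267 had a gap of 2.34 and the largest member differences at Campania (2.62) and Molise (2.44). Its scaled counts in Aglianico were 246 and 146 at Campania, 109, 363 and 211 at Molise, and 207, 367 and 149 at Sicily. In Cabernet Sauvignon they were 22.3, 44.8 and 29.3 at Campania, 27.8, 63.4 and 29.9 at Molise, and 38.2, 27.8 and 47.7 at Sicily. The varieties did not overlap, but the replicates spread widely: the lowest Aglianico Molise library had 109 and the highest 363. The deposited counts in Cabernet Sauvignon went down to 25. The pooled SD within groups was 0.63 log2 units (11 degrees of freedom), against a median of 0.26 over the 55 members.

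Cluster-27903.32036 and Cluster-27903.32635 were the members with the most reads in Aglianico. The first had scaled counts of 6600 to 12924 in Aglianico (mean 8601 ± 2090, SD, n = 8) and 1175 to 2959 in Cabernet Sauvignon (mean 1935 ± 502, SD, n = 9), a 4.51-fold average difference. Its Aglianico site means differed by only 0.19 log2 units. The second had 4012 to 12932 in Aglianico (mean 8379 ± 2748, SD, n = 8) and 2853 to 3757 in Cabernet Sauvignon (mean 3241 ± 339, SD, n = 9), a 2.47-fold average difference. Its varieties came close, since Aglianico Molise replicate 2 held 4012 and the unnumbered Cabernet Sauvignon Sicily library 3757. Its spread lay mostly in Aglianico, where the Sicily libraries had 9332, 7288 and 12932.

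**Figure D2:**
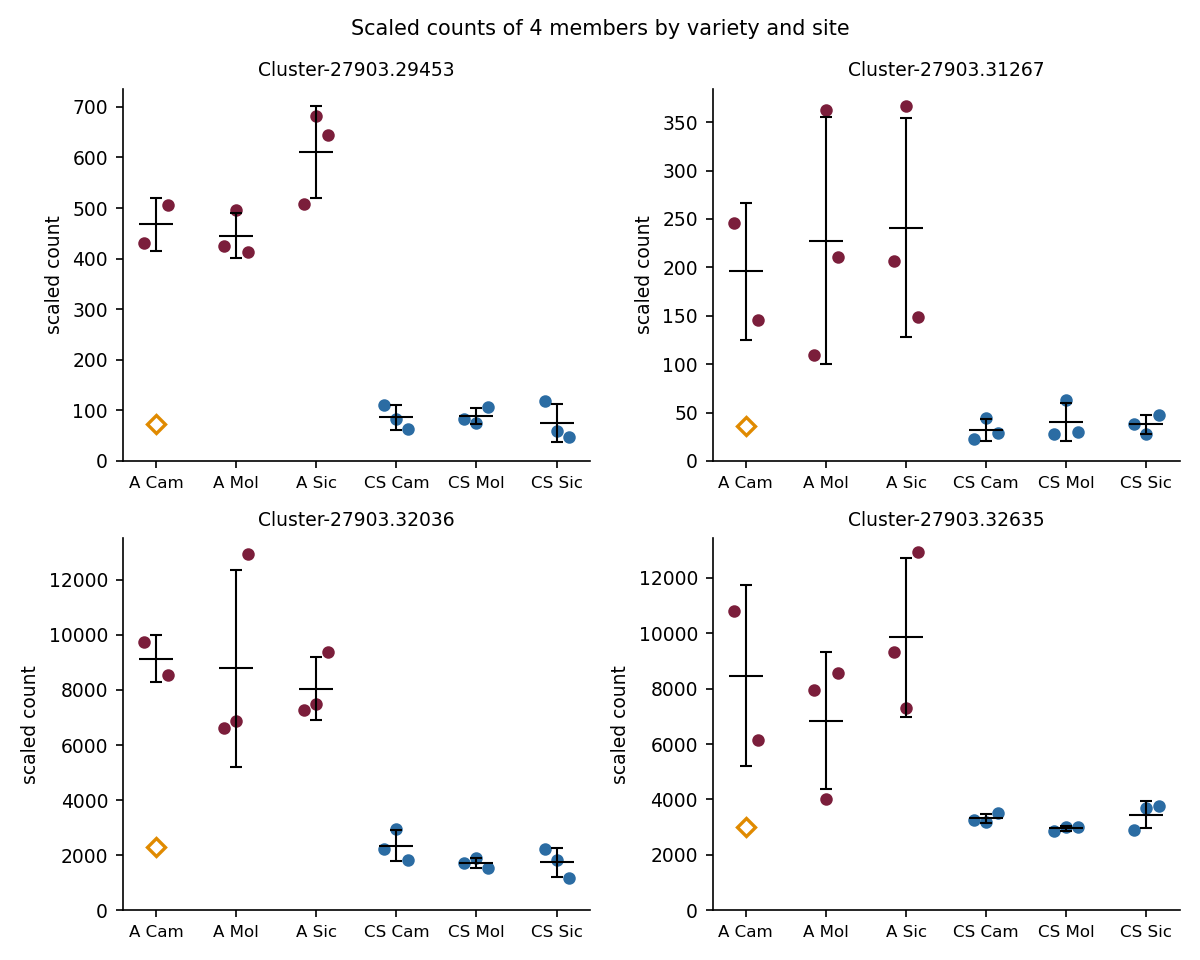
Scaled counts (linear axis from 0) of the 2 members with the widest gap and the 2 with the most reads in Aglianico, by variety (A, Aglianico; CS, Cabernet Sauvignon) and site (Cam, Mol, Sic). Filled points are the 17 libraries used by the rule, horizontal marks and bars the group mean and SD (n = 2 for Aglianico Campania, n = 3 otherwise), and the open diamond is the library labelled Aglianico Campania replicate 3, which lies at the Cabernet Sauvignon level in each panel.

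The varieties did not overlap in 48 of the 55 members, that is, the lowest of 8 Aglianico libraries exceeded the highest of 9 Cabernet Sauvignon libraries. The same held for 1.95% of all 13971 clusters. Since the rule used these values, nothing is read from the difference. Without the 2 Cabernet Sauvignon Sicily libraries that had many detected clusters, the varieties did not overlap in 51 members, beside 2.51% of all 13971 clusters. The members with overlap were of 2 kinds. In 4 of the 7 the replicates spread widely, with a pooled SD of 0.61 to 0.99 log2 units. The other 3 had a gap of 0.65 or less.

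Cluster-27903.26885 had the widest replicate spread of the 55. Its Aglianico scaled counts were 562 and 824 at Campania, 996, 509 and 1208 at Molise, and 865, 697 and 1353 at Sicily. In Cabernet Sauvignon they were 1481, 230 and 229 at Campania, 732, 593 and 170 at Molise, and 532, 477 and 156 at Sicily. Cabernet Sauvignon Campania replicate 1, at 1481, was thus higher than every Aglianico library. Its gap of 0.67 was smaller than its pooled SD of 0.99, and no other member had a gap under 1 SD. In 8 members the gap was under 2 SD. The ratio of gap to SD had a median of 3.22 and reached 7.76.

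**Figure D3:**
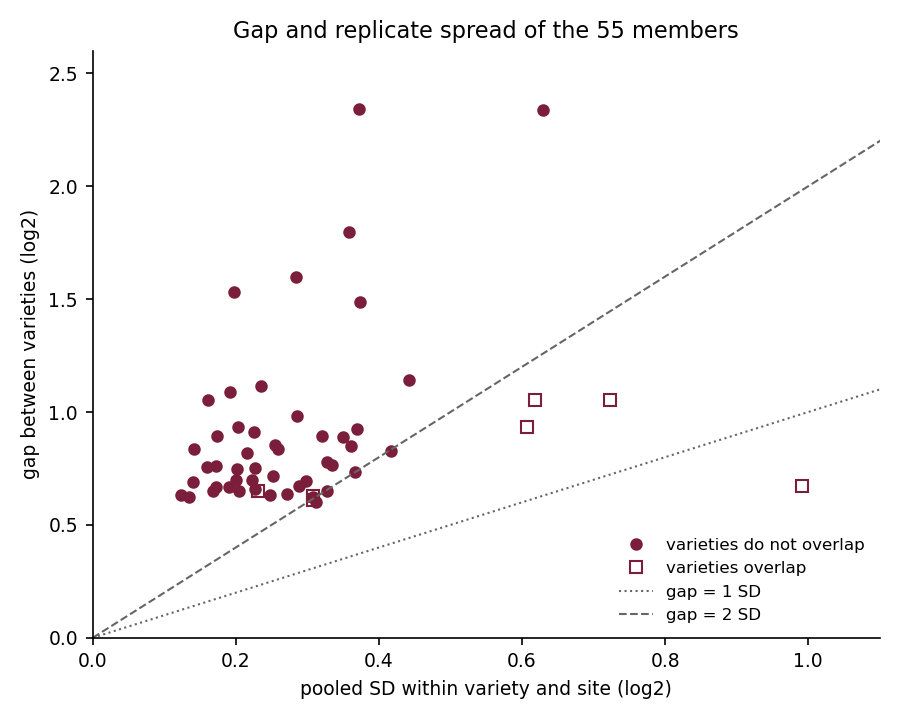
Gap between the varieties against the pooled SD within variety and site, both in log2 units, 1 point per member. Open squares are the 7 members whose varieties overlap in single libraries; 1 member lies under the line at 1 SD and 8 lie under the line at 2 SD.

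Replicate spread was somewhat wider in the members than in other site-stable clusters with similar read numbers. The pooled SD had a median of 0.26 in the members, 0.18 in all 5241 site-stable clusters and 0.25 in all 13971 clusters. The 13971 clusters were divided into 4 equal groups by their mean scaled count, with limits at 172, 449 and 1214. From the lowest group to the highest, 18, 12, 15 and 10 members fell in each. In the same order their median SD was 0.33, 0.26, 0.22 and 0.23, beside 0.29, 0.21, 0.17 and 0.16 in the site-stable clusters. The rule bounds site means and leaves the spread around them free, but it favours large differences of means, and this comparison was not tested. The median gap was 0.77, 0.73, 0.84 and 0.76 over the 4 groups.

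The place of Aglianico replicate 2 within its groups was chosen for description after the values were seen, and most members showed neither of the following patterns. Replicate 2 was the lowest library of its group at all 3 sites in 11 members (20%), beside 10.7% of all 13971 clusters. It was the highest at all 3 in 3 members (5.45%), beside 8.91% of all. At Campania it is always the lowest or the highest, since only 2 libraries were used there, and replicates 1 and 3 were not counted in the same way. Cluster-27903.32635 was of the first kind, with 6162, 4012 and 7288 in replicate 2 at Campania, Molise and Sicily. The labels do not say what replicates with the same number share.

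Site differences within a variety were bounded by the rule, and the values below that bound were as follows. The median site range was 0.28 in Aglianico and 0.29 in Cabernet Sauvignon, beside 0.54 and 0.55 over all clusters. The steadiest member in Aglianico, rank 13 by gap, had log2 means of 6.29, 6.32 and 6.34 at Campania, Molise and Sicily, and 5.21, 5.29 and 5.31 in Cabernet Sauvignon. The highest site mean was at Campania in 24 members, at Molise in 16 and at Sicily in 15 for Aglianico. It was at Campania in 25 and at each of the other sites in 15 for Cabernet Sauvignon. Over all clusters Campania was highest in 31.4% for Aglianico and in 33.8% for Cabernet Sauvignon. The Aglianico Campania mean rests on 2 libraries. The highest site was the same in both varieties for 22 members, which is 40%, beside 39.1% of all clusters.

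The size of the variety difference varied between sites within each member. It was largest at Campania in 21 members, at Molise in 17 and at Sicily in 17, so no site carried most of the largest differences. The distance between the largest and the smallest site difference had a median of 0.46 log2 units and ran from 0.02 to 1.00. The member of rank 33 was at the wide end, with a difference of 1.73 at Campania, 1.27 at Molise and 0.73 at Sicily. Cluster-27903.27840 was at the narrow end, with an average difference of 1.41 and site differences 0.02 apart. Its single libraries nonetheless spread from 378 to 1302 in Aglianico and from 82.7 to 413 in Cabernet Sauvignon, with a pooled SD of 0.72, so the near equality of its site differences is far finer than its replicate error.

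**Figure D4:**
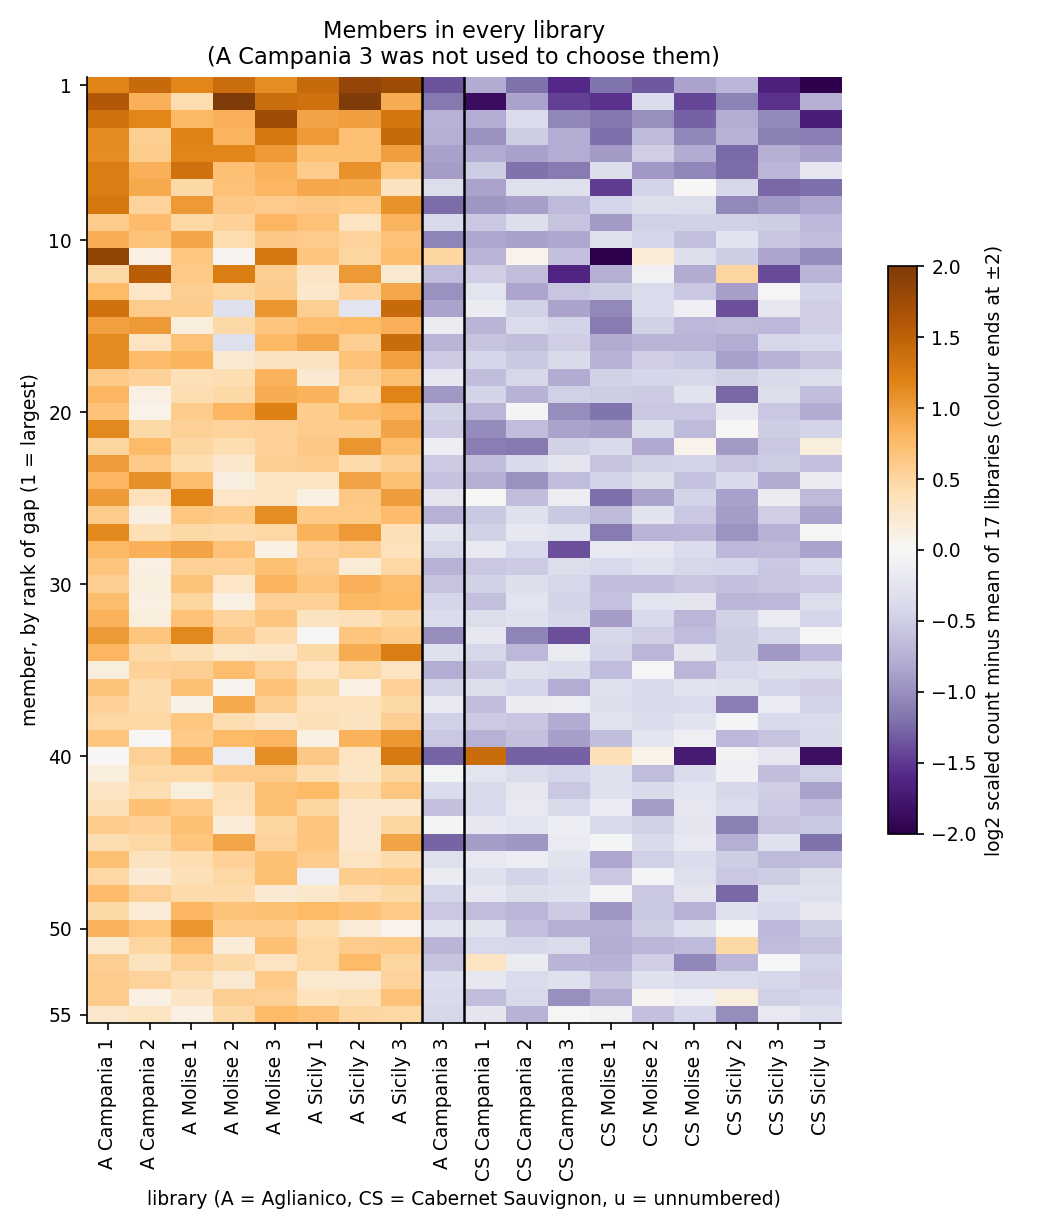
Log2 scaled counts of the 55 members (rows, widest gap first) in every library (columns), minus each member's mean over the 17 libraries used by the rule; colours end at 2 units either way. Aglianico libraries are left of the framed column, Cabernet Sauvignon libraries right of it, and the framed column, the library labelled Aglianico Campania replicate 3, has the colours of the right side.

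A model was fitted across 29738 clusters, with the libraries of the rule. By the quasi-likelihood test of edgeR at an adjusted p under 0.05, 54 of the 55 members were called higher in Aglianico on the average of the sites, where 14.5% of all clusters tested were, and 20.9% of the 13971 that the rule kept. At Campania 44 members were called (6.57% of all tested, 8.54% of those kept), at Molise 48 (7.93% and 10.9%) and at Sicily 53 (13.8% and 20.5%). The member not called on the average was Cluster-27903.26885. These tests ask whether the varieties differ on average or at a site, and none concerns the gap. The members were chosen by the same differences, so nothing is read from the counts. The count at Campania was lower without Aglianico Campania replicate 1 or without replicate 2, each of which leaves 1 Aglianico library there. At Sicily it was lower without the 2 Cabernet Sauvignon libraries with many detected clusters, which leaves 1 Cabernet Sauvignon library. The share of all clusters called was not computed for these fits.

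No member was called for a difference between sites or for an interaction of variety and site. By edgeR, 0 of 55 were called for any site difference in Aglianico (21.7% of all clusters tested, 27.4% of those kept). In Cabernet Sauvignon 0 were called (28.7% and 34.5%), and for the interaction 0 were called (20.2% and 24.1%). At an unadjusted edgeR p under 0.05 there were 3, 5 and 3 members, beside 10953, 12301 and 10554 of the 29738 clusters tested. DESeq2 called 1, 2 and 1 members, and limma-voom 1, 0 and 0. The share of all clusters called by DESeq2 or limma-voom was not computed. The rule bounds these differences, so the low counts follow from it.

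The library labelled Aglianico Campania replicate 3 was not used by the rule, and its levels in the members did not follow its label. The rule leaves this library out by name without giving a reason, and it was chosen with earlier results of these data known. The values below are thus a description and not an independent check. It lay nearer the Cabernet Sauvignon Campania mean than the mean of Aglianico Campania replicates 1 and 2 in 53 of the 55 members. It was below all 8 other Aglianico libraries in 54 members, and within the range of the 9 Cabernet Sauvignon libraries in 44. In 5 members it lay above that range and in 6 below it. The share of all clusters was not computed for these range counts. The members were chosen as high in the 8 other Aglianico libraries, so a lower place in a library outside the choice follows in part from the choice. On a scale with 0 at the Cabernet Sauvignon Campania mean and 1 at the Aglianico Campania mean, its median position was 0.01, with quartiles of -0.17 and 0.13.

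The same was seen in other clusters. The library was nearer the Cabernet Sauvignon Campania mean in 78.2% of all 13971 clusters. It was so in 94.8% of the 4084 clusters whose Campania means differed by at least 0.6 in either direction, and in 42 of the 42 mirrored clusters. For Cluster-27903.29453 it held a scaled count of 73.4, beside 63.4 to 111 in the Cabernet Sauvignon Campania libraries and 431 and 505 in the Aglianico ones. For Cluster-27903.31267 it held 36.3, beside 22.3 to 44.8 and 146 and 246. Both values lay inside the range of the Cabernet Sauvignon libraries and far under the Aglianico ones.

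**Figure D5:**
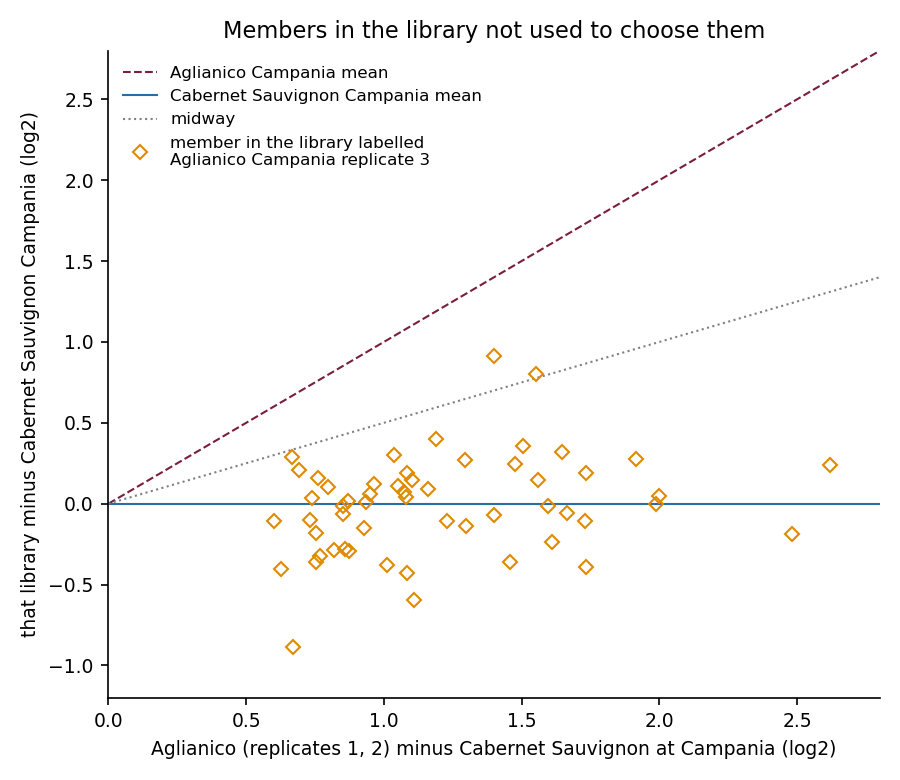
The library labelled Aglianico Campania replicate 3 minus the Cabernet Sauvignon Campania mean (vertical axis) against the Campania difference between the varieties (horizontal axis), in log2 units, 1 diamond per member. Of the 55 members, 53 lie nearer the horizontal line of the Cabernet Sauvignon mean than the dashed line of the Aglianico mean.

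The most extreme positions of this library were in the 2 members with the widest replicate spread. It was highest for Cluster-27903.27840, at 0.65, where the library held 511 and the Cabernet Sauvignon Campania libraries 222, 378 and 237. The 2 Aglianico Campania libraries of that cluster, at 1302 and 393, lay on both sides of 511. It was lowest for Cluster-27903.26885, at -1.32, where the library held 231, close to 2 of the Cabernet Sauvignon Campania libraries (230 and 229), while the third held 1481.

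In a fit with this library as a group of its own, 21 of the 55 members were called lower in it than in Aglianico Campania replicates 1 and 2 (edgeR, adjusted p under 0.05), where 2.49% of 27519 clusters were, and 3.18% of the 13971. The members had been chosen as high in those replicates, so a raised share follows in part from the choice. For Cluster-27903.29453 the log2 difference was -2.62 ± 0.45 (SE, adjusted p = 0.00366 by edgeR), and for Cluster-27903.32036 it was -1.94 ± 0.46 (SE, adjusted p = 0.0217 by edgeR). Against Cabernet Sauvignon Campania 0 members were called, where 0% of all clusters were, and 0 members and 309 of 27519 clusters had an unadjusted p under 0.05. With limma-voom 0 members were called as well. A single library was assumed to vary like the other groups, so small differences from Cabernet Sauvignon could not be detected. The median difference from Cabernet Sauvignon Campania over the members was 0.03 log2 units, beside -1.05 from Aglianico Campania.

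With that library kept under its label, the rule found 27 clusters, of which 20 were among the 55. In the fit of all 18 libraries, 0 members were called at Campania, and the share of all clusters called was not computed.

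As a share of all counts, the 55 members were a minor part of the berry transcriptome. They held 0.192% to 0.271% of the counts of an Aglianico library (median 0.23%, n = 8) and 0.0824% to 0.129% of those of a Cabernet Sauvignon library (median 0.119%, n = 9). The share was lower at Sicily in both varieties: 0.2% ± 0.0096 in Aglianico and 0.0924% ± 0.0088 in Cabernet Sauvignon (SD, n = 3). At Molise it was 0.244% ± 0.0241 and 0.123% ± 0.0031 (SD, n = 3). The library labelled Aglianico Campania replicate 3 had 0.132%. Shares of all counts move with whatever else a library holds. As a share of the counts in the 13971 clusters alone, the members were also lower at Sicily. In Aglianico they held 0.2187% to 0.2265% there, 0.2392% to 0.2847% at Molise and 0.2685% to 0.276% at Campania. In Cabernet Sauvignon they held 0.0923% to 0.1124%, 0.1225% to 0.128% and 0.1207% to 0.1316% at the same sites. The reason was not tested.

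The form of the counts and the identifiers were not used by the rule. A non-whole expected count, which arises where reads were divided between clusters, occurred in at least 1 of the 17 libraries in 40 members (72.7%), beside 75.9% of all 13971 clusters, 81.9% of the site-stable clusters and 81% of the mirrored clusters. These shares were not tested against each other. The other 15 members had whole counts throughout, and their median gap was 0.85, beside 0.76 in the 40. Both members with the widest gap, Cluster-27903.29453 and Cluster-27903.31267, belonged to the 15. All 55 identifiers share 1 prefix, as do 13970 of the 13971 clusters. The numbers after the prefix are at least 5 apart between any 2 members and at least 3 apart between a member and a mirrored cluster. What neighbouring numbers mean is not given in the sources used here.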

How the data were processed

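RNA sequencing of 18 berry libraries was analysed from the table of expected counts that the authors deposited (estimated read counts per transcript cluster, not scaled to depth). CASAVA 1.8, RSEM and DESeq2 are listed, with no role, in the submitters' processing notes, with aligner, assembler and genome build not given in the sources used here. Samples were grouped by title, and 0 columns were left aside. The Cabernet Sauvignon Sicily column with no replicate number was matched to its group only. No gene names or sequences were matched (RefSeq assembly GCF_030704535.1).

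For the rule, expected counts were divided by median-of-ratios size factors over the 13971 clusters kept. The library set aside was scaled to the same reference. Pooled SDs have 11 degrees of freedom. For tests, counts were rounded to whole numbers, filtered by filterByExpr with the 6 labelled groups, scaled by TMM and fitted with edgeR 4.0.16 (glmQLFit and glmQLFTest, robust; R 4.3.3), on 17 libraries in 6 groups, or 18 with the library set aside as a group of its own. The Benjamini-Hochberg method was applied to the p-values of all clusters tested. An SE beside a log2 difference was derived from the test, as the size of the difference divided by the square root of the F statistic. The alternatives used DESeq2 1.42.0, limma 3.58.1 (voom), other scalings, filters and thresholds, and single libraries left out. The edgeR fit was tested on simulated data with known changes in the variety difference averaged over sites. It recovered 28% of 1.5-fold, 72% of 2-fold, 80% of 4-fold and 96% of 8-fold changes, and 6.12% of its calls were false. Site differences and the interaction were not simulated.

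The members, the rule and the tests were chosen with earlier results of these data known. Clusters were named by a rule that allows at most 2 identifiers per comparison: the widest gaps, the most reads in Aglianico, the largest difference at each site, and the extreme positions of the library set aside. Other members are given by rank or summary, and ranks, groups by level and kinds of overlap were described after the values were seen.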

Additional observations from a re-analysis of the deposited data

How the results depend on the processing

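Of 230 combinations of result and alternative, 202 stayed within 1.5 times the reported count and 28 moved further. For the median gap the limit was the median replicate SD. Only the median gap could reverse its sign, which a count cannot, and it did not. The number of members was 27 with all 18 libraries under their labels, 26 with a site range under 0.4, 87 with one under 0.8 and 12 with a gap of at least 1. It was 61 with TMM scaling, of which 50 were among the 55, and 45 to 61 when any 1 library was left out, of which 36 to 52 were. The median gap of the 55 was 0.72 to 0.83 without any 1 library. It was 0.57 with all 18 libraries under their labels, which is below the 0.6 that the rule asked for. Members called for the variety difference at Campania were 26 with no filter and 0 with all 18 libraries, and 15 to 49 without any 1 library. At Sicily there were 31 without the 2 Cabernet Sauvignon libraries that had many detected clusters. The count lower in the library set aside than in Aglianico Campania was 9 with no filter. Site differences in Aglianico, 0 members in the reported fit, were called in 1 member by RLE scaling, DESeq2 or limma-voom, in 2 with all 18 libraries and in 0 to 2 without any 1 library. In Cabernet Sauvignon they were called in 1 by RLE scaling, 2 by upper-quartile scaling or DESeq2, and 0 to 1 without any 1 library. The interaction was called in 1 by upper-quartile scaling or DESeq2 and in 0 to 1 without any 1 library. The share of all clusters called was not computed for these alternative fits, so their counts of members called are not read as a result about the members. The cause of these moves was not tested, apart from the stricter or looser limits of the rule itself.

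A further fit took the replicate number as a block and left out the unnumbered library. It called 54 members on the average of the sites, 45 at Campania, 48 at Molise and 49 at Sicily. For any site difference or interaction it called 0. The share of all clusters called was not computed for this fit, and the members were chosen by the same differences, so nothing is read from these counts. Deviations from group means had a median correlation across clusters of 0.08 between libraries with the same number (35 pairs, -0.29 to 0.39). Between others it was -0.05 (71 pairs, -0.465 to 0.45). A correlation over 0.1 was found in 16 of the 35 pairs and in 22 of the 71. These values do not settle whether the numbers pair the libraries, and the reported fits leave the numbers out. The lowest single count of a member was 21.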

Other observations

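The rule required 20 counts in every Cabernet Sauvignon library and so left out clusters with fewer counts in any library of that variety. With 20 counts required in the 8 Aglianico libraries only, and 1 added to the scaled counts, 14499 clusters were kept and 59 met the other conditions, of which 53 were among the 55. The remaining 6 fell under 20 counts in at least 1 Cabernet Sauvignon library. They were kept through Aglianico alone, so their gaps are wide in part by the choice of filter and are not set beside those of the members. In 5 of the 6, deposited counts in Cabernet Sauvignon libraries ran from 5 to 48. In the other cluster the deposited counts were 84 and 56 in Aglianico Campania replicates 1 and 2, 60, 44 and 42 at Molise, and 38, 33 and 30 at Sicily. It had 0 counts in each of the 9 Cabernet Sauvignon libraries, and 0 in the library labelled Aglianico Campania replicate 3. A count of 0 allows up to 3 counts per library, so its gap depends on the 1 added and is not given. It was chosen for mention after its values were seen.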
